A study of Mus musculus with 36 samples.

Results

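The genes described here are 10 parts and outputs of the circadian clock, Arntl, Npas2, Per2, Per3, Ciart, Bhlhe41, Nr1d1, Nr1d2, Dbp and Tef, chosen by gene name from the 53274 genes that the 3 annotations behind the count files have in common. RNA-seq libraries were made from forebrain/midbrain (F/M) and cerebellum (Cb) of control and Tpp1-/- mice at 1, 2 and 3 months of age, with 3 libraries in each of the 12 groups and 36 in all. In Tpp1-/- mice the gene for the lysosomal protease tripeptidyl peptidase 1, which is lost in CLN2 disease, was disrupted by gene targeting in every cell, and the line was kept through heterozygous crosses. Controls were labelled wild type except replicate 3 of the 1-month controls, which was labelled Tpp1+/- in both regions. By sex label, replicate 1 of every 1-month group and replicate 3 of every 3-month group was female, all 2-month mice were male, and the remaining libraries were male. The mice lived under alternating light and dark phases of equal length, and the hour at which tissue was collected is not given in the sources used here. The comparisons below therefore ask, from the clock genes themselves, whether control and Tpp1-/- groups or single libraries stood at different clock states.

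In the mammalian clock, ARNTL (BMAL1) pairs with CLOCK or its relative NPAS2 and binds E-box elements to switch on the Per and Cry genes, Nr1d1, Nr1d2, Dbp, Ciart and Bhlhe41. PER and CRY proteins then inhibit that pair, the nuclear receptors NR1D1 and NR1D2 (REV-ERB alpha and beta) repress Arntl through RORE elements, and the PAR-bZIP proteins DBP and TEF act through D-box elements, so the RNA of each gene has its own peak in the day. Peripheral and brain tissues outside the suprachiasmatic nucleus also run this loop, and Per2, like Per1, is in addition induced by glucocorticoids.

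Windows of 300 bases, from 250 before to 50 after the annotated start, were found in RefSeq (GRCm38.p6) for 9 of the 10 genes, 11 windows in all. They were searched on both strands for the E-box CACGTG, for the D-box forms TTANGTAA and TTATGNAA, and for the RORE cores TAGGTCA and TGGGTCA. Of all 32851 RefSeq windows, 7.15% held CACGTG, 2.32% TTANGTAA, 3.38% TTATGNAA, 2.61% TAGGTCA and 3.98% TGGGTCA. Among the clock genes a match was found for 5, and none for Npas2, Dbp, Nr1d1 or Nr1d2, which says only that these letters are absent from these windows. Ciart held 3 E-boxes, whose first bases lay 116, 58 and 44 bases before the start, Bhlhe41 held 1 at 153 bases before it, and each of the 2 Tef windows held 1. Per3 held 2 copies of TTATGTAA, 205 and 158 bases before the start, and each copy matches both D-box forms. The second of 2 Arntl windows held TAGGTCA 30 bases after its start. The windows below show these element classes, 5′ to 3′ on the gene's own strand, with matches in capitals.

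Ciart, chr3:95882179-95882478, minus strand: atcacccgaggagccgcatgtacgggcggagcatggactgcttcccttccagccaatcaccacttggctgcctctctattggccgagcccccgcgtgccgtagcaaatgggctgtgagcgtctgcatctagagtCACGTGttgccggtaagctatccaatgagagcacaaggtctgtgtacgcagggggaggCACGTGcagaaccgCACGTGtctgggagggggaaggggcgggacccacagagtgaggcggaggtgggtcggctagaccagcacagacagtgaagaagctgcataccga

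Bhlhe41, chr6:145865371-145865670, minus strand: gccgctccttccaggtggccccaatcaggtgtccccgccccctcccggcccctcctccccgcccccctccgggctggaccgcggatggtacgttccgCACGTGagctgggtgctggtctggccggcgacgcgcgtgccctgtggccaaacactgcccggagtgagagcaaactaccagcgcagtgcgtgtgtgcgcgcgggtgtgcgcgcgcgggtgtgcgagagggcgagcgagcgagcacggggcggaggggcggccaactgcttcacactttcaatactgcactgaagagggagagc

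Per3, chr4:151044616-151044915, minus strand: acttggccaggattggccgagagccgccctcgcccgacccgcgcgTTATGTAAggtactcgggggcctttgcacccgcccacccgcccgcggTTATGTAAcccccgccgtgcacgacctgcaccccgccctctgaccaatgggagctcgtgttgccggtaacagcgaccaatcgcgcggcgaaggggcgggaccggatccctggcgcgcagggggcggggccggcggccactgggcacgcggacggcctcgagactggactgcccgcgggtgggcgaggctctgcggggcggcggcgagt

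Arntl, chr7:113207261-113207560, plus strand: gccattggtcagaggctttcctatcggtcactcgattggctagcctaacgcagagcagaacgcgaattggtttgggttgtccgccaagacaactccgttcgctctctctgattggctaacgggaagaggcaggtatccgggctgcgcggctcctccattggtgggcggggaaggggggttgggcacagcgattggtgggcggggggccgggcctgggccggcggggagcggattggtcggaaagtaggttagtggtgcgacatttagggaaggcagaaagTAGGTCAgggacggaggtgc

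The annotation in the 3-month count files (GRCm38) places Npas2 (ENSMUSG00000026077) at chr1:39193731-39363236 on the plus strand, Per2 (ENSMUSG00000055866) at chr1:91415982-91459324 on the minus strand and Bhlhe41 (ENSMUSG00000030256) at chr6:145858243-145865558 on the minus strand. It places Nr1d1 (ENSMUSG00000020889) at chr11:98767932-98775333 on the minus strand, Nr1d2 (ENSMUSG00000021775) at chr14:18204054-18239127 on the minus strand and Dbp (ENSMUSG00000059824) at chr7:45705088-45710203 on the plus strand. Values are sums over all exons of a gene, untranslated regions included. All 10 genes passed the filter on low counts at every age and were read in every library. On the scale of reads per kilobase of exon and library size (RPKM), which allows genes to be compared, Tef was highest in both regions, with a median over 18 libraries of 51.5 in F/M and 51.3 in Cb. In Cb Tef was followed by Nr1d2 at a median of 49.4 RPKM, Nr1d1 at 40.5 and Dbp at 28.9, and the ranges of Tef (44.0 to 57.4) and Nr1d2 (37.5 to 57.0) overlapped. In F/M the genes after Tef were Nr1d1 at a median of 31.5 RPKM, Nr1d2 at 29.2 and Dbp at 27.2, with overlapping ranges. The other 6 genes lay far lower, with medians from 4.02 RPKM (Arntl) to 8.44 RPKM (Npas2) in F/M and from 0.845 RPKM (Npas2) to 8.02 RPKM (Bhlhe41) in Cb. Within each region the ranges of Per2, Per3, Bhlhe41 and Ciart overlapped, so their order was not resolved. Totals of reads on genes ran from 10609896 to 29942380 per library with a median of 21049839, and the members' own counts ran from 65 (Npas2 in Cb) to 13450 (Tef in Cb).

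**Figure D1:**
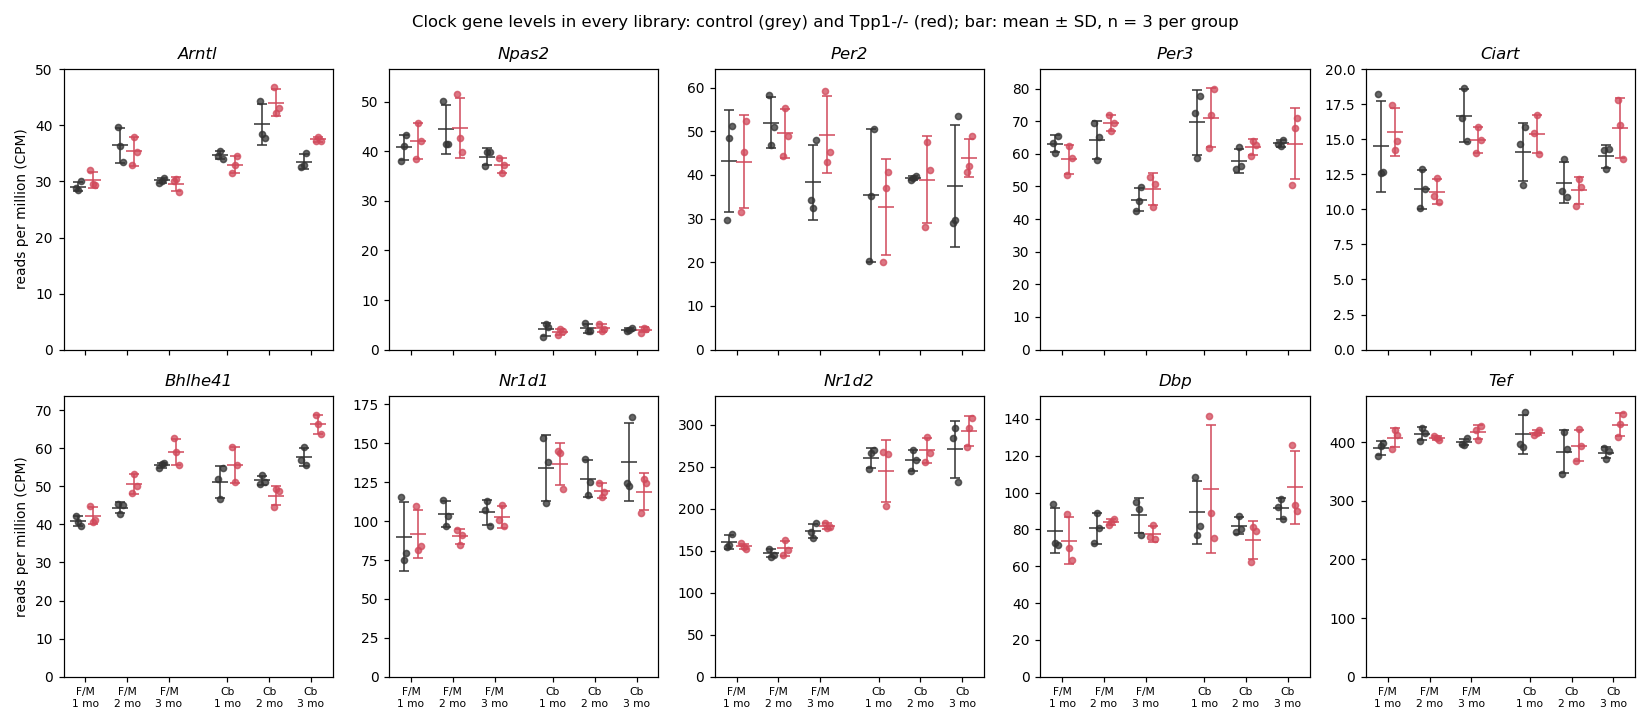
Level of each clock gene in every library, in CPM (reads scaled to library size, y axis from 0), by region and age (x axis), for control (grey) and Tpp1-/- (red) mice. Points are libraries and bars are mean ± SD of n = 3. The clearest step is Npas2, which lies at 35.6 CPM or more in every F/M library and at 5.35 CPM or less in every Cb library, while grey and red points overlap in most groups.

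The labels were checked first against the targeted gene. Tpp1 stood at 16.1 to 21.7 CPM in the 9 F/M libraries labelled Tpp1-/- and at 42.1 to 94.8 CPM in the 9 F/M controls. In Cb it stood at 16.7 to 27.8 CPM in Tpp1-/- and 50.8 to 111 CPM in controls, so the groups were apart in both regions. For F/M, the 3-month controls, all labelled wild type, reached 42.1 to 43.4 CPM, near the 46.6 CPM of the 1-month Tpp1+/- library. Wild-type F/M libraries of younger mice lay at 69.7 CPM or more. Cb gave a like split: 50.8 to 56.0 CPM at 3 months, 55.9 CPM for Tpp1+/-, at least 87.8 CPM for younger wild type. Counting settings also differed by age. The check thus told Tpp1-/- from controls, but the wild-type label of the 3-month controls was not tested. The 8 cerebellar markers summed to at least 5215 CPM in every Cb library and at most 289 CPM in every F/M library, and the 8 forebrain markers to at most 17.7 CPM in Cb and at least 444 CPM in F/M. Markers of the suprachiasmatic nucleus, the central pacemaker, gave opposite orders by 2 measures: the 5 to 7 of 8 that passed the filter summed to 64.3 to 85.7 CPM in F/M and to 78.3 to 105 CPM in Cb, whereas their median log2 change of Cb against F/M in controls was -0.51, -2.04 and -3.90 at the successive ages. At each age 2 of these markers were called higher in Cb, by up to 5.27, 5.39 and 5.07 on the log2 scale. At the successive ages 2, 3 and 5 were called lower, so the list did not move as one set. The levels below are those of whole regions, in which fewer cells of a type and less RNA per cell cannot be told apart.

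The first question was whether the clock genes differed between Tpp1-/- and control mice. None of the 10 was called in any of the 6 comparisons (edgeR's quasi-likelihood test with Benjamini-Hochberg adjustment over all genes, adjusted p under 0.1 and a fold of at least 1.5). The share of all genes called was itself small. In F/M it was 0.0112%, 0.737% and 0.464% at the successive ages, and in Cb 0.0112%, 2.05% and 0.859%. DESeq2 and limma-voom also called 0 of 10 in each comparison. The fitted folds of the 60 tests ran from 0.862 to 1.28, and the smallest adjusted p was 0.173. In 54 of the 60 tests the 95% interval lay wholly within 1.5-fold in either direction. The 6 wider intervals belonged to Per2, in both regions of the youngest and oldest mice, and to Dbp and Npas2 in Cb of the youngest, so for these a change of that size was not resolved in the fit by group alone. With sex as a term, or with a replicate block, all 20 intervals of 1 month lay within 1.5-fold, while those of Per2 at 3 months stayed wider. That block pairs control and Tpp1-/- libraries by number, which the labels do not give. Without replicate 1 of every 1-month group, 10 of 10 intervals lay within 1.5-fold in F/M and 9 of 10 in Cb. The wider interval there was that of Npas2, at a log2 change of -0.31 ± 0.16 (SE, n = 2). At an unadjusted p under 0.05, 4 of the 60 tests passed, 2 in F/M at 2 months and 2 in Cb at 3 months. The share of all genes under that limit was 1.89%, 16.9% and 5.94% in F/M and 7.66%, 9.67% and 6.49% in Cb. Groups did not overlap in 6 of the 60 tests, beside 14.8%, 18.3% and 24.1% of all genes in F/M and 7.97%, 18.1% and 8.67% in Cb. The libraries compared are labelled as separate samples, and p-values measure the spread between them.

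**Figure D2:**
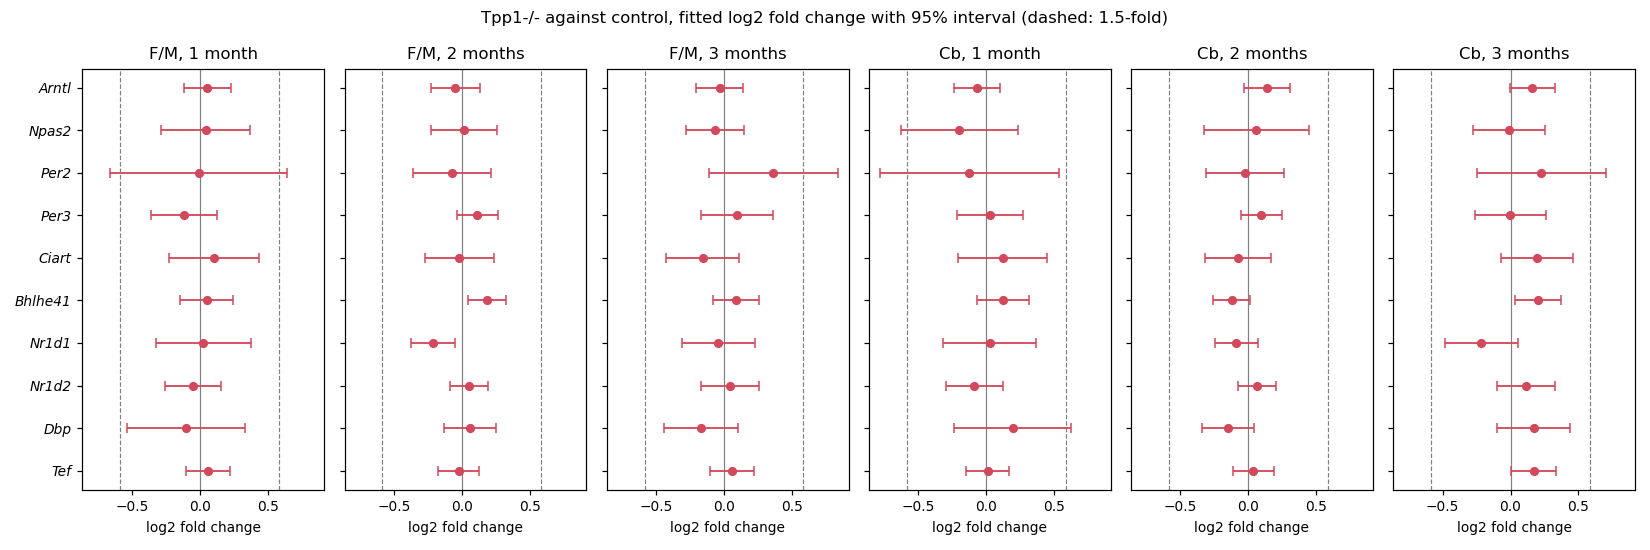
Fitted log2 fold change of Tpp1-/- against control (x axis) for each clock gene (y axis) with its 95% interval, 1 panel for each region and age. Dashed lines mark 1.5-fold. Each estimate lies within these lines, and the longest bars are those of Per2 at 1 and 3 months.

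The positive arm of the loop did not move past the test. Arntl stood at 28.8, 28.4 and 30.1 CPM in F/M controls at 1 month and at 32.0, 29.5 and 29.3 CPM in Tpp1-/-. These ranges overlapped, with a log2 change of 0.06 ± 0.08 (SE, n = 3 per group). At 3 months in Cb, Arntl stood at 32.6, 32.9 and 35.1 CPM in controls and 37.3, 38.0 and 37.3 CPM in Tpp1-/-. The groups did not overlap there, with a log2 change of 0.16 and an adjusted p of 0.781, beside 8.67% of all genes with groups that do not overlap in that comparison. Npas2, the CLOCK relative, differed by at most 0.20 on the log2 scale in any genotype comparison with all libraries. In Cb at 1 month its value of -0.20 became -0.43 without control replicate 1 (adjusted p 0.705).

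Of the repressors, Per2 had the largest estimate and also the widest error. In F/M at 3 months it stood at 34.2, 32.5 and 48.1 CPM in controls and 59.4, 42.9 and 45.4 CPM in Tpp1-/-. The groups overlapped because control replicate 3 was high, and the log2 change was 0.36 with an interval of -0.11 to 0.84 and an adjusted p of 0.996. In Cb at the same age it stood at 29.0, 29.7 and 53.6 CPM in controls and at 40.6, 42.1 and 48.9 CPM in Tpp1-/-. Control replicate 3 was again the highest control, and here it also exceeded every Tpp1-/- library. The log2 change was 0.23 with an interval of -0.25 to 0.70. Without control replicate 3 of the region compared, the Per2 change became 0.56 for F/M, with an adjusted p of 0.693, and 0.58 for Cb, with an adjusted p of 0.243. Both were more than 1.5 times the value with all libraries. Per3 and Ciart stayed between -0.16 and 0.20 on the log2 scale in all 6 comparisons with all libraries, and Ciart reached 0.30 when 1 library was left out.

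Bhlhe41 (DEC2), a repressor of E-box transcription whose window above holds 1 E-box, was the member whose groups most often did not overlap. In F/M at 2 months it stood at 45.5, 42.7 and 45.1 CPM in controls and at 48.1, 53.3 and 50.02 CPM in Tpp1-/-. All 3 Tpp1-/- libraries were higher, the log2 change was 0.18 ± 0.07 (SE, n = 3), and the adjusted p was 0.173. In Cb at 2 months it stood at 50.7, 53.0 and 51.1 CPM in controls and at 44.7, 49.2 and 48.7 CPM in Tpp1-/-. Here all 3 Tpp1-/- libraries were lower, with a log2 change of -0.12 and an adjusted p of 0.608. In Cb at 3 months it stood at 57.0, 60.3 and 55.6 CPM in controls and at 68.8, 66.4 and 63.7 CPM in Tpp1-/-, all higher, with a log2 change of 0.20 and an adjusted p of 0.633. The annotation places 1280 exonic bases of Bhlhe41, 19.0% of its exons, opposite the unnamed gene model Gm43909, 539 of the 2993 of Dbp opposite Sphk2 and 263 of the 3077 of Nr1d1 opposite Thra, but the counting used strand. Cell type markers moved with the 2-month groups as well. Of 12 midbrain and thalamus markers 5 were called lower in Tpp1-/- Cb, where they summed to 188 to 219.8 CPM against 273 to 310.03 CPM in controls. In F/M the same 12 lay on the higher side in Tpp1-/-, at 421 to 490 against 337 to 410 CPM with 1 called, as did 7 of 7 astrocyte markers, of which 0 were called and 4 had an unadjusted p under 0.05. Of the 6 suprachiasmatic markers tested, Avp and Lhx1 were called higher in Tpp1-/- F/M and Vip was called lower in Tpp1-/- Cb. Of 8 cerebellar markers 2 were called higher in Tpp1-/- F/M, En2 and Barhl1, and of 8 forebrain markers 2 were called lower in Tpp1-/- Cb, Bcl11b and Lhx2. Of 12 choroid plexus markers 9 were called higher in Tpp1-/- F/M (551 to 754 against 249 to 642 CPM) and 7 in Tpp1-/- Cb (1655 to 1833 against 1008 to 1305 CPM). At 3 months 6 of 10 microglia markers were called higher in Tpp1-/- Cb, at a sum of 336 to 508 CPM against 165 to 206 CPM. In F/M at that age 2 of 10 microglia markers were called higher in Tpp1-/-. All 12 midbrain and thalamus markers lay lower there, at 336 to 389 against 465 to 475 CPM with 1 called. All 8 cerebellar and all 7 forebrain markers tested also lay lower, with 0 called. The part of these tissues and cell types in the values of Bhlhe41 and of the other clock genes, such as Nr1d1 below, was not tested. The same holds for the differences between regions and ages given below.

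Nr1d1, the repressor of Arntl, was lower in Tpp1-/- F/M at 2 months without passing the test. It stood at 114, 96.6 and 103 CPM in controls and at 94.4, 84.9 and 91.1 CPM in Tpp1-/-, and the groups did not overlap. The log2 change was -0.21 ± 0.08 (SE, n = 3) with an unadjusted p of 0.0133 and an adjusted p of 0.177. In that comparison 2 of 10 clock genes had an unadjusted p under 0.05, beside 16.9% of all genes, and 2 of 10 had groups that do not overlap, beside 18.3% of all genes. Its relative Nr1d2 lay within 0.11 of 0 on the log2 scale in each comparison with all libraries, and reached 0.19 in Cb at 3 months without control replicate 2 (adjusted p 0.779).

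The PAR-bZIP outputs gave the same picture. Dbp, whose RNA has one of the deepest daily cycles among mammalian transcripts, stood at 72.4, 89.1 and 80.5 CPM in F/M controls at 2 months and at 82.5, 84.1 and 85.7 CPM in Tpp1-/-, with the Tpp1-/- libraries inside the control range. In Cb at 3 months it stood at 92.4, 96.7 and 85.5 CPM in controls and 126, 93.2 and 89.8 CPM in Tpp1-/-. Only Tpp1-/- replicate 1 was above the controls, and the log2 change was 0.17 with an interval of -0.10 to 0.44. Tef, which at 3 months in Cb was 371 to 390 CPM in controls and 409 to 449 CPM in Tpp1-/-, had groups that did not overlap, a log2 change of 0.17 and an adjusted p of 0.741. In this last comparison 3 of 10 clock genes, Arntl, Bhlhe41 and Tef, did not overlap, beside 8.67% of all genes, and 2 of 10, Bhlhe41 and Tef, had an unadjusted p under 0.05, beside 6.49% of all genes.

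The change with genotype was also compared between regions and between ages. No clock gene was called for a difference between Cb and F/M at any age (adjusted p under 0.1), beside 0.0%, 2.97% and 0.00581% of all genes at the successive ages. Only Bhlhe41 at 2 months had an unadjusted p under 0.05, beside 1.94%, 11.5% and 3.51% of all genes, and DESeq2 and limma-voom called none of the 10. The lowest adjusted p was 0.122, for Bhlhe41 at 2 months, whose change in Cb minus that in F/M was -0.30 on the log2 scale (95% interval -0.50 to -0.11). No clock gene was called for a difference between ages, where 0.0218% and 0.393% of all genes were called in F/M from 1 to 2 and from 2 to 3 months, and 1.28% and 1.44% in Cb. At an unadjusted p under 0.05 the counts were 0 and 0 in F/M, beside 8.81% and 8.12% of all genes, and 2 and 1 in Cb, beside 8.85% and 6.41%. Bhlhe41 again had the lowest adjusted p, 0.194, with a difference of 0.32 on the log2 scale in Cb from 2 to 3 months.

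Among the other genes of the loop none was called by genotype. Of 14 further core clock and clock-output genes, including Clock, Per1, Cry1, Cry2 and Hlf, 0 passed in each of the 6 comparisons, where 13 or 14 were tested. Their median log2 change lay between -0.03 and 0.06, beside medians over all genes within 0.01 of 0. The same count of 0 was found for all 10 clock-modifying kinases, ligases and partners. At an unadjusted p under 0.05 there were 0 to 2 of the first list and 0 or 1 of the second in each comparison.

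The regions differed where the genotypes did not. In controls, 2 of 10 clock genes were called between Cb and F/M at each age, beside 36.9%, 39.3% and 37.7% of all genes at the successive ages. The same genes were called at each age, Npas2 lower and Nr1d2 higher in Cb. For lower in Cb the share of all genes was 21.1%, 21.9% and 19.9% at the successive ages, and for higher in Cb it was 15.8%, 17.4% and 17.8%.

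Among these 10 genes Npas2 differed most between the regions. At 1 month controls stood at 38.1, 41.0 and 43.2 CPM in F/M and at 2.63, 5.14 and 4.63 CPM in Cb. The log2 change was -3.30 ± 0.18 (SE, n = 3), or 9.86-fold lower in Cb, with an adjusted p of 4.1e-10. At 2 and 3 months the log2 changes were -3.39 and -3.27, so the 3 ages gave nearly one value. CLOCK, the partner that NPAS2 replaces, was not lower in Cb: the mean of Clock was 171 ± 5.54 CPM in Cb and 152 ± 9.42 CPM in F/M controls at 1 month (SD, n = 3).

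Nr1d2 (REV-ERB beta) was the other called gene. In controls at 2 months it stood at 152, 143 and 145 CPM in F/M and at 245, 270 and 258 CPM in Cb, without overlap. Its log2 change was 0.70 ± 0.10, 0.81 ± 0.07 and 0.64 ± 0.10 at the successive ages (SE, n = 3). Nr1d1 was also higher in Cb at each age, by 0.58, 0.28 and 0.38 on the log2 scale, with adjusted p of 0.00712, 0.00326 and 0.0192, but under the fold minimum. At 1 month its value lay at that minimum of 0.58, and it passed or missed with the setting. With the replicate number as a block, Nr1d1 was called at 0.59 on the log2 scale (adjusted p 0.000156), making 3 of 10 clock genes. That block pairs F/M and Cb libraries by number in both genotype groups. The pairing was read from correlations of 0.104 to 0.17 between same-numbered controls, not from the labels. Replicate 1 also carries the female label in both regions at this age, which such a likeness cannot be told apart from.

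**Figure D3:**
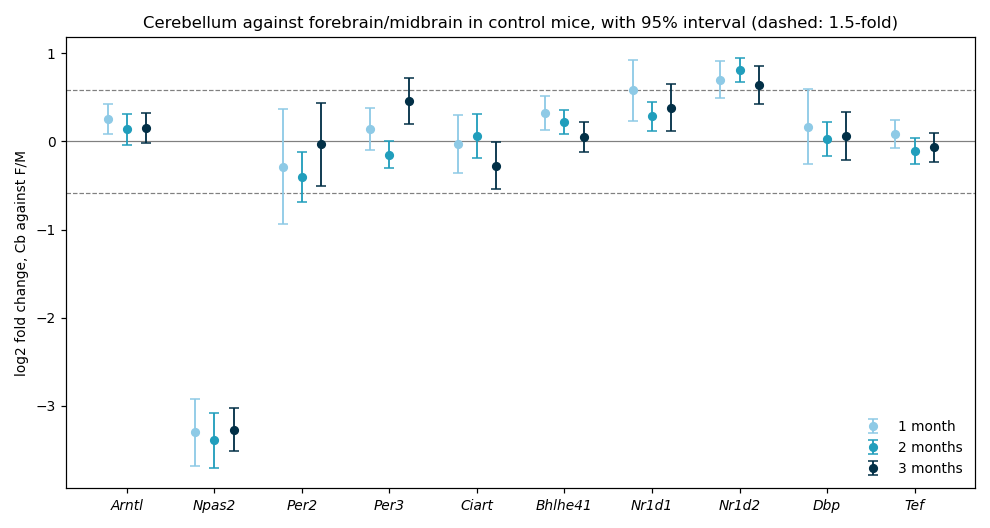
Fitted log2 fold change of Cb against F/M in controls (y axis) for each clock gene (x axis) at 1, 2 and 3 months (light to dark), with 95% intervals. Dashed lines mark 1.5-fold. Npas2 lies at -3.39 to -3.27 and Nr1d2 at 0.64 to 0.81, beyond the lines at each age.

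Without a fold minimum, 5, 6 and 5 of the 10 passed at the successive ages, beside 59.4%, 70.1% and 57.8% of all genes, and 4, 5 and 7 had regions that did not overlap, beside 65.9%, 67.6% and 63.6%. With the replicate block Per2 passed as well at 1 month (log2 change -0.34, adjusted p 0.0208), making 6. Arntl was higher in Cb at 1 month by 0.25 (adjusted p 0.0151), Bhlhe41 at 1 and 2 months by 0.33 and 0.22 (adjusted p 0.00645 and 0.00727), and Per3 at 3 months by 0.46 on the log2 scale (adjusted p 0.00634). Per2 was lower in Cb at 2 months by a log2 change of -0.40 (adjusted p 0.014), as was Ciart at 3 months by -0.27 (adjusted p 0.0814). Per3 changed sides, at -0.15 at 2 months (adjusted p 0.0794) and 0.46 at 3 months. Dbp and Tef did not pass at any age, and their intervals lay within -0.26 to 0.60. Differences between ages were not tested for these, since the libraries of each age were made into counts with other annotation versions and strand settings.

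Further clock genes were called between the regions in both directions. At the successive ages 4, 4 and 4 were called higher in Cb and 3, 3 and 2 lower, of 14, 14 and 13 tested. The shares of all genes are those given above for each direction. Not all called genes are named here, and those named are not ranked by size. Rora, a receptor that activates through ROREs, was higher in Cb by 1.63, 2.04 and 1.23 on the log2 scale at the successive ages. Cry1 was higher by 1.14, 1.18 and 0.95 and Nfil3, a repressor at D-boxes, by 0.83, 0.59 and 0.74. Rorb was lower by -1.83, -1.47 and -1.93, and Hlf, the third PAR-bZIP gene, by -0.90, -0.64 and -0.88. Arntl2, the paralogue of Arntl, was lower by -1.23 and -1.26 at 1 and 2 months and by -0.41, under the fold minimum, at 3 months. The median over the list of further clock genes was between -0.10 and 0.17 at the 3 ages, beside -0.01 to 0.04 over all genes.

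Several clock genes varied widely between libraries of one group. The within-group SD of log2 CPM, pooled over the 12 groups, was 0.377 for Per2, 0.227 for Npas2, 0.222 for Dbp and 0.18 for Nr1d1. Of genes within 0.5 log2 CPM of its own level, Per2 was more variable than 99.2%, Dbp than 94.1%, Nr1d1 than 84.3% and Npas2 than 84.0%. At the other end Arntl (SD 0.0733), Tef (0.0705) and Bhlhe41 (0.0766) were more variable than only 3.45%, 10.5% and 8.46% of such genes. The highest library of a group exceeded the lowest by up to 2.49-fold for Per2 and 1.87-fold for Dbp, against up to 1.19-fold for Arntl. The within-group SD of Per2, 0.377, was about as large as its largest genotype change, 0.36.

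At 1 month this spread had 1 shape in all 4 groups, and it followed the replicate number rather than genotype or region. Per2 stood at 29.8, 48.6 and 51.1 CPM in F/M controls and at 31.5, 45.3 and 52.4 CPM in F/M Tpp1-/- for replicates 1, 2 and 3. In Cb it stood at 20.3, 35.1 and 50.6 CPM in controls and at 20.2, 37.0 and 40.7 CPM in Tpp1-/-. Replicate 1 was the lowest library of each group, by 0.42 to 0.71 on the log2 scale under the mean of its group. Replicate 1 was the library with the female label in each of these groups.

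Dbp went the other way in the same libraries. It stood at 93.7, 72.8 and 71.8 CPM in F/M controls and at 88.4, 69.9 and 63.5 CPM in F/M Tpp1-/- at 1 month. In Cb it stood at 108, 77.1 and 82.0 CPM in controls and at 141, 89.1 and 75.5 CPM in Tpp1-/-. Replicate 1 was the highest of each group, 0.24 to 0.54 above its group mean on the log2 scale. Nr1d1 was also above its group mean in replicate 1, by 0.11 to 0.38, as was Ciart by 0.02 to 0.34, while Npas2 was below it by 0.10 to 0.60 on the log2 scale. Arntl, in contrast, deviated by at most 0.08 in either direction in these 4 libraries, and Tef by at most 0.06.

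**Figure D4:**
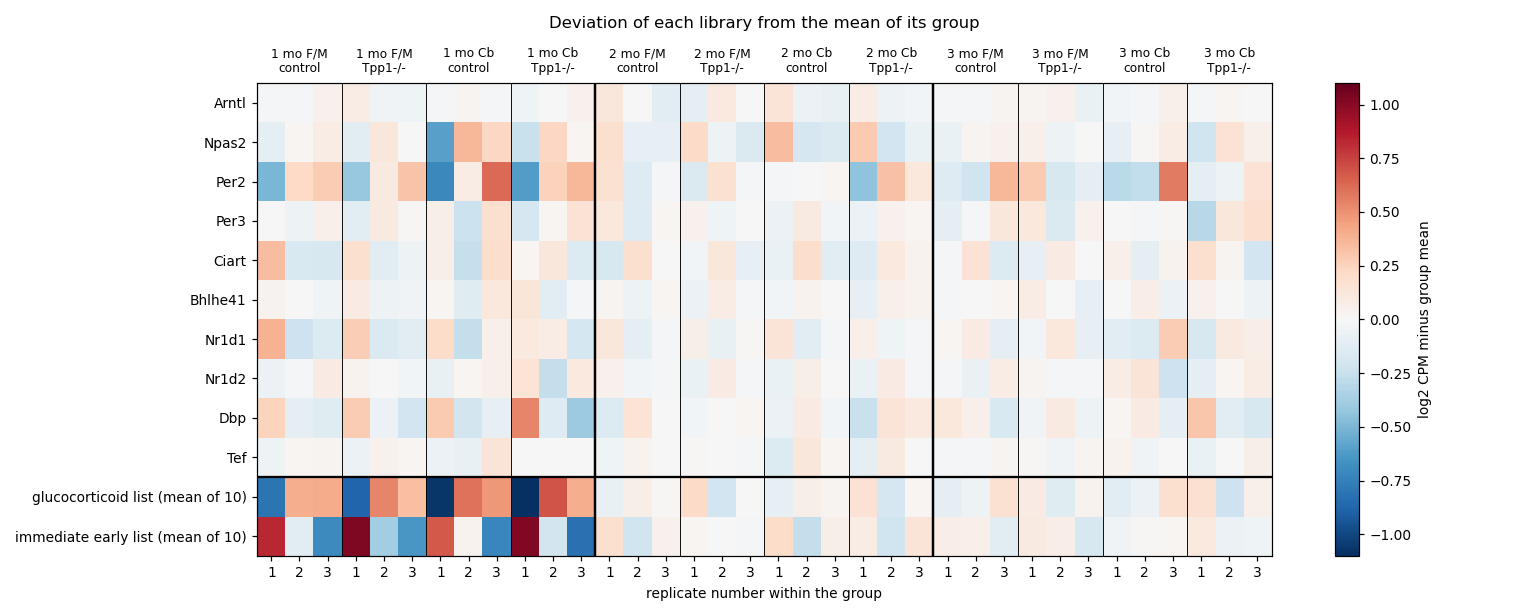
Log2 CPM of each library minus the mean of its group (colour scale, from blue at -1.1 to red at 1.1), for the 10 clock genes and the mean of the glucocorticoid-responsive and immediate early lists (rows) over all 36 libraries (columns, by age, region and group). At 1 month replicate 1 is blue for Per2 and the glucocorticoid list and red for Dbp and the immediate early list in all 4 groups. No block of that size shows in the same rows at 2 or 3 months.

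Lists of genes that respond to stress hormones, neuronal activity and temperature were read in the same libraries. Over the 10 glucocorticoid-responsive genes, such as Fkbp5, Sgk1 and Tsc22d3, replicate 1 of the 1-month groups lay at -1.097 to -0.80 from its group mean (mean log2 deviation) and the other 8 libraries of that age 0.33 to 0.69 above. Over the 10 immediate early genes, such as Fos, Egr1 and Arc, replicate 1 lay 0.68 to 1.03 above its group mean, against -0.82 to 0.04 in the other 8. Fkbp5 ran from 27.7 to 68.7 CPM and Fos from 13.2 to 59.1 CPM within the F/M controls of 1 month. The mean over the 6 temperature-responsive genes lay between -0.12 and 0.08 in replicate 1, but its members did not move as one. Cirbp lay 0.08 to 0.37 above its group mean in these libraries. Over the 36 libraries 3 of the 6 had a positive r with Dbp (Cirbp at 0.72) and 3 a negative one (Hspa8 at -0.55). The part of these responses in the clock gene values was not tested, and replicate number and sex label cannot be told apart at this age.

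At 2 and 3 months these deviations were smaller. The glucocorticoid list deviated by -0.23 to 0.21 and the immediate early list by -0.26 to 0.20 over those 24 libraries. Their sign still followed the replicate number in part: at 2 months the immediate early list lay above its group mean in replicate 1 and below it in replicate 2 of all 4 groups, and at 3 months the glucocorticoid list lay above in replicate 3 and below in replicate 2 of all 4 groups. Correlation of the glucocorticoid list with Per2 over the 12 libraries of an age was 0.92, -0.81 and 0.70 at the successive ages, and with Dbp -0.91, -0.24 and -0.11 (Pearson r of deviations from group means, given as a description). At 3 months replicate 3, again the female label, had the highest Per2 of both control groups, 0.36 and 0.57 above the group mean, but -0.11 and 0.16 in the Tpp1-/- groups. Its Dbp was below the group mean in all 4 groups of that age, by 0.06 to 0.18, whereas the female-labelled libraries of 1 month were above it.

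Several gene pairs deviated together over the 36 libraries, and some relations held only at 1 month. Dbp and Per2 gave a Pearson r of -0.64 over all libraries, made up of -0.88, 0.50 and -0.60 at the successive ages (12 libraries each). Dbp and Ciart gave 0.55, 0.80 and 0.66 at the successive ages, and Dbp and Npas2 gave -0.69, -0.75 and -0.84, so these kept their sign. Per3 and Tef also kept theirs, at 0.60, 0.38 and 0.85. Dbp and Nr1d1 gave 0.74 at 1 month but -0.71 and -0.39 later. The points share library preparation, depth and normalisation, and they are deviations within groups of 3, so no p is attached.

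In the tested family of 9 relations, none passed. Dbp against Arntl over the 6 libraries of a region and age gave a Pearson r of 0.28, -0.38 and 0.22 in F/M and of -0.78, -0.76 and 0.26 in Cb at the successive ages. The lowest p was 0.0375 (exact permutation test over 720 pairings, two-sided), with a Benjamini-Hochberg value of 0.158, for Cb at 2 months, where Spearman's rho was -0.83 with an exact permutation p of 0.0583. Without the 2 libraries farthest from the median of Dbp that r was -0.39, so it rested on them. For Dbp in F/M against Dbp in Cb of the same genotype and replicate number, r was 0.84, 0.20 and -0.19 at the successive ages. The first had an exact permutation p of 0.0403, adjusted 0.158. At 1 month rho was 0.71 (exact permutation p 0.136), and r was 0.37 without the 2 farthest pairs. Leaving out the 2 farthest also turned the sign of Dbp against Arntl in F/M at 1 month (0.28 to -0.15) and 2 months (-0.38 to 0.60) and in Cb at 3 months (0.26 to -0.54), and gave -0.89 in Cb at 1 month.

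The same pairing, taken on deviations from group means, was highest for 3 of the 10 genes. Over 18 pairs of F/M and Cb libraries with one age, genotype and replicate number, r was 0.84 for Per2, 0.74 for Dbp and 0.71 for Npas2, beside a median of 0.03 over 18306 genes. Only 0.322% of genes exceeded Per2 and 1.19% exceeded Dbp. By age (6 pairs each) Per2 gave 0.96, 0.67 and 0.65, Dbp 0.97, 0.46 and 0.13, and Npas2 0.82, 0.92 and -0.30, so Dbp rested mainly on the 1-month pairs and Npas2 did not hold at 3 months. Arntl, Per3, Nr1d2 and Ciart lay between -0.14 and 0.16 over the 18 pairs, but far apart by age: Per3 ran from -0.96 to 0.73, Nr1d2 from -0.95 to 0.37, Arntl from -0.82 to 0.55 and Ciart from -0.46 to 0.69. Nr1d1 gave 0.42 over all pairs and 0.70, 0.96 and -0.45 by age. The labels do not say whether F/M and Cb libraries of one number came from one mouse.

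**Figure D5:**
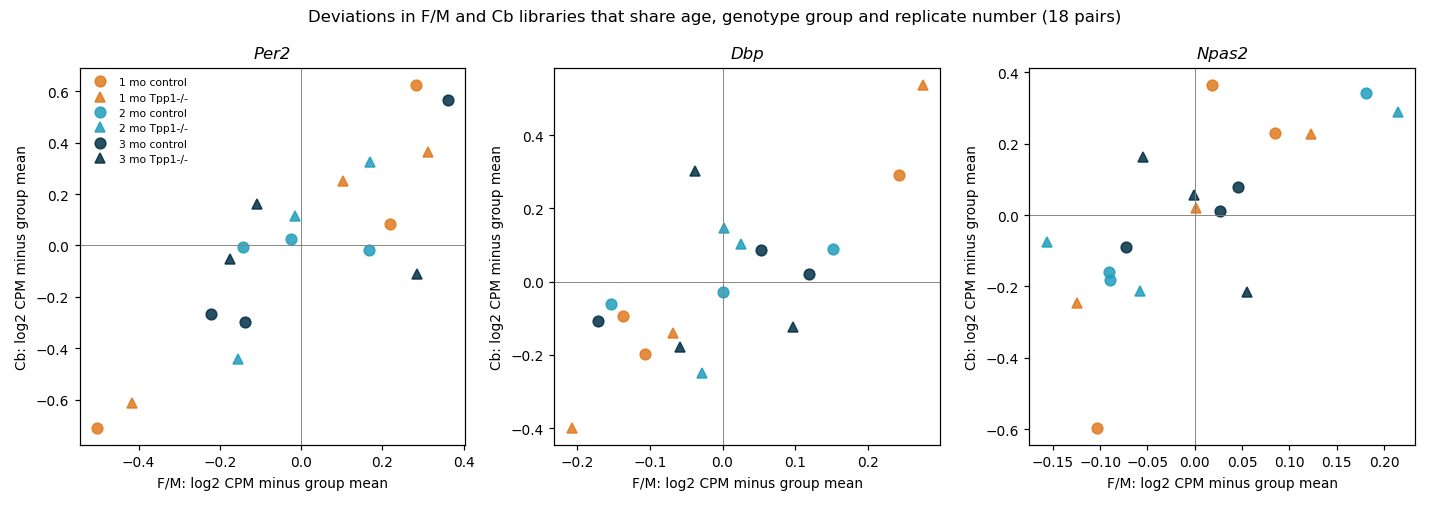
Deviation from the group mean, in log2 CPM, of Per2, Dbp and Npas2 in F/M (x axis) and in Cb (y axis), for the 18 pairs of libraries with one age (colour), genotype (circle control, triangle Tpp1-/-) and replicate number. For Per2 the 1-month replicate 1 pairs lie at the lower left and for Dbp at the upper right, and 13 of 18 Per2 pairs and 15 of 18 Dbp pairs have one sign in both regions.

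The genes whose deviations were most like those of Dbp over the 36 libraries, outside the 10, were Cspg5 (r = 0.92), Fjx1 (0.91), B4galt2 (0.88), Hes6 (0.86) and 2810459M11Rik (0.86). The most opposed were Creb3l2 (-0.92), Daam2 (-0.92), Usp54 (-0.92), Ptpdc1 (-0.90) and Atp10a (-0.90). Without the 1-month libraries these 10 values lay at 0.74 to 0.91 and at -0.95 to -0.71. Transcript length moved with Dbp too: the slope of a library's deviations on log2 transcript length gave r = -0.63 with the deviation of Dbp over 36 libraries, and -0.66 over the 24 of 2 and 3 months. The log2 read total gave -0.01 and -0.23 over these sets, made up of 0.23, -0.38 and 0.01 at the successive ages. The longest transcript of Dbp has 1837 bases with a GC content of 61.6%, higher than that of 97.9% of genes. Over the same 36 and 24 libraries Dbp had r = 0.38 and 0.38 with the slope on GC content, 0.38 and 0.65 with the microglia markers and 0.28 and 0.66 with the astrocyte markers. With the cerebellar markers r was 0.17 over all libraries and 0.84 over those of Cb. The part of length, base composition and these cell types in the Dbp values was not tested. Per2 had r = 0.38 with the slope on length over 36 libraries and 0.26 over the later 24. With the forebrain markers its r was -0.36 and -0.65 over those sets, and -0.82 at 3 months, and with the midbrain and thalamus markers it was -0.08 and -0.48. Of all genes, 5.16% had r of at least 0.5 with Per2 and 3.09% had r of at most -0.5. The part of length and of these markers in the Per2 values was not tested.

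The genotype estimates at 1 month were also read with sex as a term and without replicate 1. With sex as a term, the SE of the Per2 log2 change fell from 0.31 to 0.13 in each region, and the estimates were 0.01 in F/M and -0.11 in Cb. Without replicate 1 of every 1-month group, an alternative added after the data were seen, the estimates were -0.03 ± 0.14 in F/M and -0.15 ± 0.14 in Cb (SE, n = 2). For Dbp the SE fell from 0.20 to 0.10 with sex as a term, and the Cb estimate moved from 0.20 to 0.17, and to 0.04 without replicate 1. Without replicate 1 the Cb estimates of Npas2 and Nr1d2 lay farther from 0, at -0.31 against -0.20 and at -0.20 against -0.09. So did those of Per3 in Cb (0.14 against 0.03) and of Ciart (0.21 against 0.11) and Nr1d1 (0.10 against 0.03) in F/M. Others moved toward 0, such as Bhlhe41 in Cb (0.06 against 0.12) and Per3 in F/M (-0.05 against -0.11). Between regions in controls, Per2 stayed under the fold minimum at 1 month with sex as a term (log2 change -0.32, adjusted p 0.0452), without it (-0.29, adjusted p 0.454), with a replicate block (-0.34, adjusted p 0.0208) and without replicate 1 (-0.21, adjusted p 0.225).

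Genes of the same response lists did differ by genotype at later ages, where the clock genes did not pass. Of 10 immediate early genes, 4 were called lower in Tpp1-/- in F/M at 2 months (Npas4, Egr2, Nr4a1 and Fos), 4 in Cb at 2 months (Dusp1, Junb, Npas4 and Fos) and 2 in Cb at 3 months (Fosb and Nr4a1), beside the shares of all genes given above. In F/M at 3 months 0 were called, yet all 10 had a log2 change below 0, with a median of -0.52 and an unadjusted p under 0.05 for 8, whereas in Cb at that age the median was -0.27, with 4 such genes. The cerebellar, forebrain, and midbrain and thalamus markers tested also lay lower in F/M at 3 months, as given above. Their part in the immediate early values was not tested. Fos in F/M at 2 months was 14.6 ± 1.12 CPM in Tpp1-/- and 23.3 ± 2.81 CPM in controls (SD, n = 3), with an adjusted p of 0.0951. Of 10 glucocorticoid-responsive genes, Fkbp5 alone was called, in Cb at 3 months, at 23.3 ± 3.21 CPM in Tpp1-/- and 14.03 ± 1.51 CPM in controls (adjusted p 0.0141). In that comparison all 10 had a log2 change above 0, with a median of 0.32 and an unadjusted p under 0.05 for 4. In F/M at 3 months 9 lay above 0, with a median of 0.24 and 2 such genes. At 1 month 9 in F/M and 10 in Cb lay above 0, with medians of 0.19 and 0.21 and 0 such genes. At 2 months 8 and 7 did, with medians of 0.14 and 0.05 and 1 and 0 such genes. None of the 6 temperature-responsive genes was called in any of the 6 comparisons.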

How the data were processed

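Gene counts of 36 libraries were used as the authors deposited them: whole-number featureCounts counts per gene, one file a library, not normalized. Per the file headers, counting used featureCounts 1.6.3 with GENCODE M21 at 1 month, 1.6.2 with M16 at 2 months and 1.6.2 with M18 at 3 months, with strand setting 1, 2 and 1. The headers also name fractional counting of multi-mapping reads, yet all values were whole. The submitters' processing notes name STAR 2.5.2b. Totals were 10609896 to 29942380 reads, and 95.9 to 97.8% fell on protein-coding genes. No 2 libraries were identical.

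Each age was fitted separately over its 12 libraries and 4 groups with edgeR 4.0.16 (R 4.3.3; low-count filter by filterByExpr, TMM factors, quasi-likelihood F test), and p-values were Benjamini-Hochberg adjusted over all genes tested. A call needed an adjusted p under 0.1 and, for genotype and region, a fold of at least 1.5. Differences between ages came from a 36-library model over shared genes. Levels are TMM-scaled CPM, and RPKM divides by the exon length in the file. Deviations are log2 CPM (prior count 0.5) minus the group mean. Relations used exact permutation tests (scipy 1.17.1). Alternatives were DESeq2 1.42.0, limma-voom (limma 3.58.1), other scaling, no filter, a replicate block, sex as a term, other thresholds and leaving out each library. Same-numbered F/M and Cb controls of 1 month correlated at 0.104 to 0.17 over genes in their deviations from group means, so their numbers were read as pairs, from the data and not the labels. The fits were tested on simulated data.

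The clock genes and all lists were chosen with earlier results of these data known. All 10 clock genes are named in each comparison, and from other lists up to 5 called genes with the smallest adjusted p, the 5 genes most like and most opposed to Dbp, and Tpp1. Genes outside this rule (Clock and the examples of each list) were named after their values were seen. Cell type marker lists served as checks. The region values of 1 further clock gene are not reported here.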

Additional observations from a re-analysis of the deposited data

Results flagged for a closer look

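Bhlhe41 met the criterion that all samples of one group move one way and all samples of another the opposite way. At 2 months all 3 Tpp1-/- libraries lay above the controls in F/M, at a log2 change of 0.18 (0.184072 before rounding), and all 3 lay below them in Cb, at -0.12 (-0.120759). In Cb the direction was also opposite between 2 months and 3 months, where the log2 change was 0.20 (0.201947). Both differences were tested in the models: the one between regions at 2 months had an adjusted p of 0.122 and the one between 2 and 3 months in Cb had 0.194 (edgeR's quasi-likelihood test), so neither passed. Groups of 3 libraries were not screened for outlying samples.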

How the results depend on the processing

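In the 96 alternative fits of the genotype comparisons and the 80 of the differences between ages, 0 of 10 clock genes were called each time, as with the settings reported, and no called value turned direction. The difference between regions at 2 months gave 1 called gene, Bhlhe41 at -0.32 on the log2 scale, without replicate 1 of the F/M controls, against 0 otherwise (range 0 to 1 when leaving out libraries). Between Cb and F/M in controls the count of 2 became 1 at 3 months without replicate 2 of the Cb controls, where Nr1d2 fell to 0.57, under the fold minimum (range 1 to 2), and 3 at 1 month in 8 of 15 alternatives that added Nr1d1. The fit with a replicate block gave 0 for every genotype comparison and 3, 2 and 2 for the regions at 1, 2 and 3 months. Same-numbered libraries of control and Tpp1-/- correlated at -0.06 to 0.18 over genes (5 of 18 pairs over 0.1) and those of F/M and Cb at -0.03 to 0.17 (4 of 18), so outside the regions of the 1-month controls the numbers were not taken as pairs. Every library correlated best with its own number in 4 of 12 such sets, a hint from the data, not the design. None of the 9 relations passed under library totals or a prior count of 2, and 0.22 of F/M at 3 months became -0.03 under library totals.

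Counts over all genes moved by over 1.5 times in several comparisons. For genotype, F/M at 1 month ran from 1 to 16 against 2, Cb at 1 month from 1 to 272 against 2 (272 without Tpp1-/- replicate 3, 82 with no filter), F/M at 2 months from 20 (without Tpp1-/- replicate 1) to 546 (no fold minimum) against 127, Cb at 2 months from 257 to 530 against 353, F/M at 3 months from 34 (without control replicate 2) to 309 (only the 6 libraries compared) against 80, and Cb at 3 months from 46 to 296 against 148. The difference between regions ran from 0 to 28 against 0, 324 to 832 against 511 and 0 to 75 against 1 at the successive ages. That between ages ran from 0 to 194 against 4 and 24 to 254 against 72 in F/M, and 153 to 515 against 235 and 194 to 421 against 263 in Cb. The cause was not tested. Sex as a term was not run at 2 months, where all mice were male. A 1.5-fold change of Per2 at 3 months was not resolved by group alone, with sex as a term or with a replicate block.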
